A study of Mus musculus with 4 samples.

Results

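The stromal progenitor peaks are 452 of the 189598 accessible regions that single-nucleus ATAC-seq detected in inguinal white adipose tissue (iWAT) of the mouse. ATAC-seq marks open chromatin by inserting sequencing adapters where DNA is not packed away. The regions were selected on measured accessibility. Nuclei annotated as adipocyte progenitor cells (APC1 and APC2) were pooled, and a region was taken when it reached at least 20 CPM in that pool and at least 4 times the CPM of each other pool. The other pools were adipocytes, vascular endothelial cells (VEC), the cluster annotated as vascular smooth muscle cells (VSMC), myeloid cells, B cells and T cells. A count is 1 nucleus with at least 1 read in the region, and CPM scales the counts of a region to the total counts of the pool.

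Adipose stromal progenitors are fibroblast-like cells of the connective tissue between adipocytes. They lay down collagen and other matrix, and a fraction of them can differentiate into adipocytes, including the thermogenic beige adipocytes that arise in iWAT during cold. Their identity is held largely by enhancers, which are regulatory regions away from gene starts that bind combinations of transcription factors. AP-1, TEAD and NFI proteins and the E-box binding TWIST and TCF21 factors are known regulators of fibroblasts and other mesenchymal cells.

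The 21 mice were male C57BL/6 animals of 8 weeks, 3 in each of 7 groups. Day 0 mice were housed at room temperature (22 °C). The other groups spent 1, 3 or 7 days in the cold (6.5 °C) or received the β3-adrenergic agonist CL-316,243 (CL, 1 mg/kg) for as long. The sequenced samples are 4 lanes that mix the mice, so mouse, group and cell type were taken from the deposited annotation of each nucleus. The APC pool held 1227 of 32552 nuclei and 3027840 counts, with 25 to 118 nuclei and 44632 to 411002 counts per mouse. Of these nuclei, 665 were APC1 and 562 were APC2.

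A set of 10 of the regions is shown here in the central 300 bases, which is the stretch that was searched for motifs. These were picked from the named regions to show the 4 motifs that are described further on, so they are illustrations and not a sample. Capitals mark, on either strand, the E-box CATCTG of the TWIST and TCF21 type, the AP-1 letters TGANTCA, the NFI letters TTGGCA and the TEAD letters GGAATG. Each sequence is the forward strand of GRCm38 (mm10) and carries the name of the protein-coding gene with the nearest start. The first 4 lines are regions open in both APC1 and APC2.
Tgfbr2 region, chr9:116847507-116847806: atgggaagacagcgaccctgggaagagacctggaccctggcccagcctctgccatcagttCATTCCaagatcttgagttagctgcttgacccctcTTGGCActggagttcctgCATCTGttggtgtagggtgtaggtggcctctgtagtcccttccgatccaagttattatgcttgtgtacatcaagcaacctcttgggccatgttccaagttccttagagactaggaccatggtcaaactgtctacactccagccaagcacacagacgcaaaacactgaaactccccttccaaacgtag
Nr2f2 region, chr7:70267120-70267419: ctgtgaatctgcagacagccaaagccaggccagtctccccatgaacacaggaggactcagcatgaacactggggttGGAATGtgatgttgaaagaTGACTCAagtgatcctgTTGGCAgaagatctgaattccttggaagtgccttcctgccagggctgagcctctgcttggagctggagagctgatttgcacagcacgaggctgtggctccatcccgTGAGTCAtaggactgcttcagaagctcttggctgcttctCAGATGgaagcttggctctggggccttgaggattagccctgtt
Col1a1 region, chr11:94928855-94929154: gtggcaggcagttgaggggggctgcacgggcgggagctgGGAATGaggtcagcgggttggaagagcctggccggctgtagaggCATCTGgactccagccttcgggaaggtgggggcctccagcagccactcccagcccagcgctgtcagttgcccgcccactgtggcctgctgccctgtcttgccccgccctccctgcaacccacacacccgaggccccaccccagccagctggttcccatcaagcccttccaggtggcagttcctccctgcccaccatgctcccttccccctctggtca
Cxcl12 region, chr6:117327198-117327497: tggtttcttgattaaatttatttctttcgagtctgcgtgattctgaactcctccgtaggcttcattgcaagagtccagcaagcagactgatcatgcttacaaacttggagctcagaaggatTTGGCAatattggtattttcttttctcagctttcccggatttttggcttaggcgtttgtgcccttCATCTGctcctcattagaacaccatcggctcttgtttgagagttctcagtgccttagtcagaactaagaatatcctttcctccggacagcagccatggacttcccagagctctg
The next 3 are regions at least 2-fold more accessible in APC1.
Cd34 region, chr1:194929933-194930232: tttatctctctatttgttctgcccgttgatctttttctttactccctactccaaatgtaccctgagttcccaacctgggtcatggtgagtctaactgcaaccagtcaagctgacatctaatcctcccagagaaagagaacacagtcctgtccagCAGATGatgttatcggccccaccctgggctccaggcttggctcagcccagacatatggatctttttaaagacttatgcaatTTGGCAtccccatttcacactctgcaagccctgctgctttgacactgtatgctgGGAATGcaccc
Dkk2 region, chr3:132279469-132279768: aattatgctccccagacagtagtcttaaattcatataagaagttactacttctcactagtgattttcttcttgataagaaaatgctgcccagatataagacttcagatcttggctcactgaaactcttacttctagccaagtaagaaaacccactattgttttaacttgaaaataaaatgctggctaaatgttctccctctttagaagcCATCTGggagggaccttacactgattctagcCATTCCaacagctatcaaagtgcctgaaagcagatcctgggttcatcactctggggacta
Mmp2 region, chr8:92801254-92801553: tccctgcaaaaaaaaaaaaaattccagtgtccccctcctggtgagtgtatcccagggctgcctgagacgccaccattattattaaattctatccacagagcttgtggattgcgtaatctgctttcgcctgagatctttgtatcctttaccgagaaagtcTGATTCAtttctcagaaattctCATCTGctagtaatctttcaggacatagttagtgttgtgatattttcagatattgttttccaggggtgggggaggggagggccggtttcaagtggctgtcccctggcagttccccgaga
The last 3 are regions at least 2-fold more accessible in APC2.
Akap11 region, chr14:78464308-78464607: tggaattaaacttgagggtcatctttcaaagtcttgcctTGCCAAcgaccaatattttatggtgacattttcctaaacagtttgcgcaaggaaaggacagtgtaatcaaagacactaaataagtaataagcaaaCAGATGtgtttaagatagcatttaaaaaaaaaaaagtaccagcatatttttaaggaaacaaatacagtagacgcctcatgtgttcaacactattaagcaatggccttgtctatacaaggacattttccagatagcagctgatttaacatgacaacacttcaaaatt
Has2 region, chr15:56616071-56616370: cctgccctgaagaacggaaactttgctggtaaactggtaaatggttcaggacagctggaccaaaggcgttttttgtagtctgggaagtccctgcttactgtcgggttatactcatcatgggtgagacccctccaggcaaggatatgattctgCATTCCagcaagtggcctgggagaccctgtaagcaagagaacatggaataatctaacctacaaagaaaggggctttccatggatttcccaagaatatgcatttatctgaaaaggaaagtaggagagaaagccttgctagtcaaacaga
Nr2f1 region, chr13:78629223-78629522: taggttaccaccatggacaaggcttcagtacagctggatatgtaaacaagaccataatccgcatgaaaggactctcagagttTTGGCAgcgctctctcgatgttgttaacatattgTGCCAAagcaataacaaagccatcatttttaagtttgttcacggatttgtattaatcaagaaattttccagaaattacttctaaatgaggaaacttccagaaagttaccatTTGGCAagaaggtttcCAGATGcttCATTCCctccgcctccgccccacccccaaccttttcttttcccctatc
The window nearest to Nr2f2, a nuclear receptor gene of mesenchymal cells, held 5 matches, among them 2 for AP-1. The window nearest to Nr2f1, its close relative, also held 5 matches, of which 3 were for NFI. The window nearest to Has2, the hyaluronan synthase gene, held a single TEAD match.

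The annotation of the progenitor nuclei was compared with marker genes, using the counts of all peaks over a gene body and 2000 bases upstream. The CPM of genes, here and in the next paragraph, were scaled to a smaller total than all counts of the cell type. They are therefore not on the scale of the CPM of single regions. APC1 had the highest level of the 12 cell types for 9 of 13 stromal progenitor markers. Cd34, a surface marker of adipose progenitors, reached 98.2 CPM in APC1 and 4.32 CPM in APC2. Ly6a, which encodes Sca1, reached 47.0 and 6.91 CPM, and Pi16, a marker of early stromal progenitors, 37.1 and 2.59 CPM. Pdgfra, the general receptor marker of these cells, was close in both, with 90.7 CPM in APC1 and 75.1 CPM in APC2. Other genes of the list were higher in APC2 than in APC1, namely Pdgfrb (70.1 CPM in APC1 and 181 CPM in APC2), Icam1 (45.4 and 96.7 CPM) and F3 (29.7 and 38.0 CPM). APC2 was the highest of the 12 types for 1 of the 13, Pdgfrb. Icam1 was highest in dendritic cells (194 CPM), F3 in beige adipocytes (45.8 CPM) and Dpp4 in CD8 T cells (240 CPM, 237 in APC1). Ebf2 had 525 CPM in APC1 and 513 in beige adipocytes. Tek, an endothelial marker, was also highest in APC1 (124 CPM, 102 in VEC).

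APC2 had a higher level than APC1 for all 8 mural markers, including Rgs5 with 101 CPM against 33.0 CPM. It had the highest level of the 12 types for 6 of the 8. Mcam was highest in white adipocytes (79.0 CPM, 13.8 in APC2) and Des in the VSMC cluster (115 CPM, 59.6 in APC2). APC2 also had the highest level of the 12 types for 5 of 8 markers of lymph node stroma. Cxcl13, a chemokine that attracts B cells, reached 22.5 CPM in APC2 and 3.30 CPM in APC1, from 1 peak. Il7, a lymphocyte survival factor, reached 73.4 CPM in APC2 and 23.9 in APC1, but also 66.4 in dendritic cells and 65.0 in white adipocytes. Ccl19, Ccl21a and Madcam1, also highest in APC2, stood at only 6.91, 12.1 and 7.77 CPM there, each from 1 peak. The rest were highest elsewhere. Pdpn had 152 CPM in APC1 and 149 in APC2, and Ltbr 61.3 CPM in VEC and 47.5 in APC2. Tnfsf11 had 68.2 CPM in the Tcell cluster and 66.5 in APC2. The markers thus went with the progenitor label for APC1 and only in part for APC2, and the 2 clusters are kept apart below. The study annotated the clusters on these same nuclei, with marker genes such as Cd34 and Ly6a among its evidence. The comparison is therefore a description and no independent check of the labels. The VSMC pool, one of those the rule compared against, carried skeletal muscle genes, with Ttn at 463 CPM and Ckm at 283 CPM, while Rgs5 stood at 4.56 CPM there.

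The mix of APC1 and APC2 differed between mice. In 3 mice lymphocytes were 11.9%, 14.1% and 36.8% of nuclei, and APC1 made up 100%, 97.2% and 89.0% of their APC nuclei. In the other 18 mice lymphocytes were 58.2% to 90.8% of nuclei and APC1 22.6% to 74.5% of APC nuclei. Within these 18 mice the correlation of the 2 shares was Pearson r = -0.45 (permutation p = 0.055, adjusted 0.078) and Spearman rho = -0.43 (permutation p = 0.078, adjusted 0.078), and r was -0.25 (permutation p = 0.345) without the 2 mice farthest from the median lymphocyte share. Whether lymph node tissue in the samples plays a part in APC2 or its regions was not tested.

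Barcode sequences were also compared between mice. In all, 4218 barcode sequences occurred in 2 or more mice, each time on different days of the same treatment, and 20.2% of them had 1 cell type in all mice. Among APC nuclei, 330 carried such a barcode. Without all such nuclei the rule took 449 regions, of which 346 were among the 452.

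The 452 regions had 20.1 to 76.6 CPM in the APC pool, with a median of 25.1 CPM and 76 counts. They stood 4.01 to 60.1 times above the next pool, with a median of 6.19. These values chose the regions and are given as a description. The next pool was VEC for 212 regions, adipocytes for 133, the VSMC cluster for 69, myeloid cells for 35 and T cells for 3. The VEC pool held only 351 nuclei and 614132 counts, and 401 of the 452 regions had at most 3 counts there. The VSMC pool held 283 nuclei and 766681 counts, and 430 of the regions had at most 3 counts there. The comparisons with VEC and with the VSMC cluster are therefore coarse. One region just inside the 20 CPM limit was near Pard3b (61 counts), and one just outside was near Galnt15 (60 counts). At the 4-fold limit, a region near Id4 stood at 4.01 times VEC and a region near Bicc1 at 3.99 times VEC.

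Few of the regions that were open in the APC pool passed the rule. Of 11746 peaks with at least 20 CPM in the APC pool, 452 passed the 4-fold rule. Adipocytes alone kept out 507 more, VEC alone 341 and the VSMC cluster alone 58.

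The share of counts in the regions follows from the rule, which kept only regions low in the other pools, and is given as a description. They took 1.26% of all APC1 counts and 1.18% of all APC2 counts, against 0.122% in white adipocytes, 0.0942% in beige adipocytes, 0.139% in VEC and 0.0209% in B cells. A median APC1 nucleus had 19 of the 452 regions open among 1380 open peaks, and a median APC2 nucleus 21.5 among 1815. A median white adipocyte nucleus had 3 open among 2561 peaks, and a median B cell nucleus had 0 among 974. At least 5 of the regions were open in 91.0% of APC1 and 95.4% of APC2 nuclei, against 35.0% of white adipocytes and 0.209% of B cells. Single regions were open more widely, since 84.9% of white adipocytes, 82.8% of beige adipocytes and 20.6% of B cells had at least 1. The rule did not compare white with beige adipocytes, but it limited the level of their pool. White nuclei gave 24353694 of the 28911452 counts of that pool, so the rule bears more on white than on beige levels. The share of counts in the regions was higher in white than in beige adipocytes in 18 of the 19 mice with both, at 0.0969% to 0.140% in white (median 0.116%) and 0.0502% to 0.151% in beige (median 0.0826%), so the 2 ranges overlapped. By region, 326 were higher in white and 126 in beige adipocytes. The median level of the regions was low in both, at 2.01 CPM in white and 1.32 CPM in beige adipocytes. The same split over all peaks was not counted, so these numbers are not read as a trait of the regions.

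**Figure D1:**
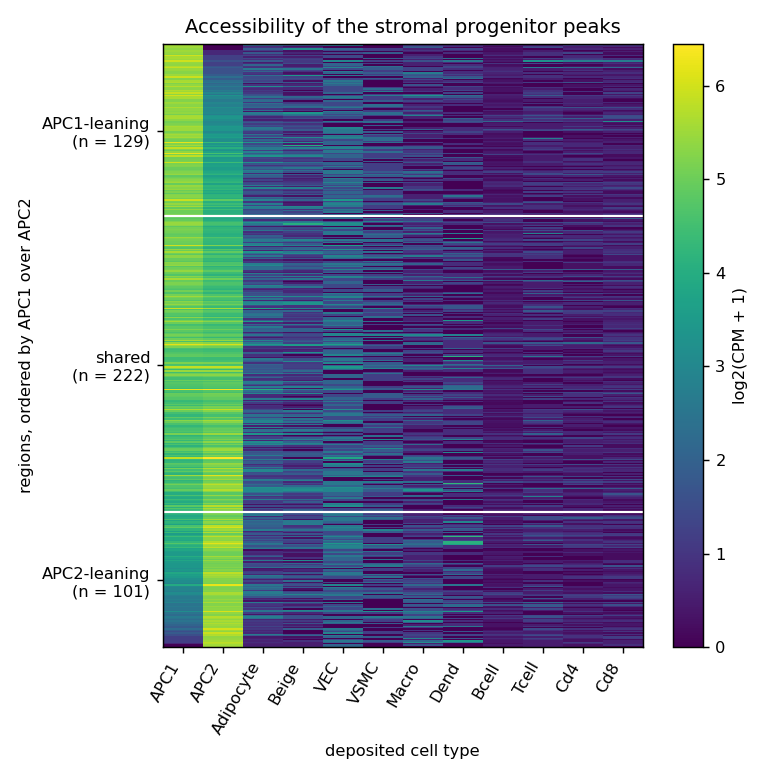
Accessibility of the 452 stromal progenitor peaks (rows, ordered by the ratio of APC1 to APC2) in the 12 deposited cell types (columns), as log2(CPM + 1). White lines part the 129 APC1-leaning, 222 shared and 101 APC2-leaning regions. The rule selected on the pool of the first 2 columns, so APC1, APC2 or both are high in each row.

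The regions split between APC1 and APC2. With 0.5 counts added to each, 129 regions (28.5%) were at least 2-fold more accessible in APC1 and 101 (22.3%) at least 2-fold more accessible in APC2, while 222 lay between. Among all 11746 peaks with at least 61 APC counts, the same limits took 6.81% towards APC1 and 7.42% towards APC2. These peaks include the regions but are not matched to them. Their median distance to a gene start was 499.5 bases, against 66686.5 for the regions. The rule also took regions for differing between cell types, and the other peaks were not chosen so. The contrast is therefore a description and not read as a trait of the regions. In 39 regions APC1 exceeded APC2 by more than 8-fold, and in 29 APC2 exceeded APC1 as much. APC1 and APC2 were clustered on these same nuclei, so the ratios describe the clusters and were not tested.

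The classes were set on the pooled counts of these same mice, so the direction in single mice is a description too. In the 18 mice with at least 10 nuclei of both clusters, an APC1-leaning region was higher in APC1 in 9 to 18 mice, with a median of 14, and 120 of the 129 reached 12 mice. An APC2-leaning region was higher in APC2 in 12 to 18 mice, with a median of 16. Mouse 1 of the 3-day cold group gave 22.2% of all APC1 counts. Without this mouse the rule took 113 APC1-leaning and 138 APC2-leaning regions, so which side was larger turned with 1 mouse. Without mouse 3 of the 1-day CL group the numbers were 112 and 119.

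**Figure D2:**
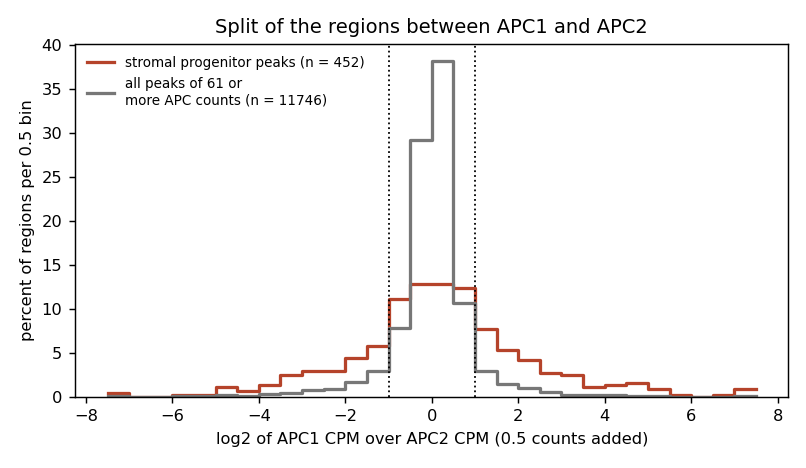
Percent of regions in bins of 0.5 of the log2 ratio of APC1 over APC2 CPM, for the 452 stromal progenitor peaks and for all 11746 peaks with at least 61 APC counts. Dotted lines mark 2-fold, and 28.5% and 22.3% of the stromal progenitor peaks lie beyond them, against 6.81% and 7.42% of all. The 2 sets are not matched for distance to a gene start, and only the stromal progenitor peaks were chosen for differing between cell types.

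The most accessible region was the promoter of Dclk1, a doublecortin-like kinase, at chr3:55241633-55242980, centred 58 bases upstream of the gene start. Over the 21 mice its APC level was 48.4 CPM at lowest, 78.0 at the median and 157 at highest, and no mouse was at 0. It had similar levels in APC1 (73.3 CPM) and APC2 (80.1 CPM) and reached 15.1 CPM in white adipocytes. Next came an intronic region at chr9:116847209-116848105, whose nearest start, that of the TGF-beta receptor gene Tgfbr2, lies 672297 bases away. It ranged from 41.1 to 138 CPM over the mice, with a median of 81.8. An intergenic region at chr12:71446175-71447439, 136923 bases from Dact1, a Wnt pathway modulator, ranged from 43.6 to 138 CPM with a median of 69.5. All 3 were detected in every mouse.

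Among the 10 most accessible regions, 8 were shared by APC1 and APC2. These included a region over the start of Ddr2, a collagen receptor gene, with 60.3 CPM in APC1 and 47.8 CPM in APC2. Further shared regions lay nearest to Npvf, Neil3, Fbxl17 and Dcp2, with 48.9 to 57.8 CPM in the APC pool. The exceptions were an intronic region at chr1:40355324-40355869 near Il1rl2, an interleukin-36 receptor gene, with 73.9 CPM in APC1 and 22.2 in APC2, and a region at chr13:51345708-51346601 near S1pr3, a sphingosine-1-phosphate receptor gene, with 25.3 and 71.4 CPM. All 3 regions near Il1rl2 leaned to APC1, while of the 4 near S1pr3, 2 leaned to APC2 and 2 were shared.

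The APC1-leaning end held regions with almost no counts in APC2. The Cd34 region, 8736 bases upstream of the gene start, had 50.6 CPM in APC1 (78 counts, exact Poisson 95% interval 40.0 to 63.1) and 2.02 CPM in APC2 (3 counts, 0.417 to 5.90). These intervals cover counting error only. In the mice with at least 10 APC1 nuclei, its median was 48.6 CPM in APC1 and its highest value 96.3, and it was at 0 in 3 of them. In APC2 it was at 0 in 16 mice and the highest value was 9.18 CPM, so almost all of its counts came from APC1. APC1 was the higher cluster in 15 of 18 mice and APC2 in 0.

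Of the APC1-leaning regions, 5 had no count in APC2, and their ratio is a lower bound against 3 counts over the pool. Such a bound takes the measured level of the higher cluster and leaves out its counting error. The largest bound was at a region near Nrep, at least 28.6-fold higher in APC1 with 89 counts there. Regions near Edem2, Pop1 and Tril were at least 22.8-fold, 22.5-fold and 22.5-fold higher in APC1, and a second region near Tril had 45.4 CPM in APC1 and 1 count in APC2. Tril encodes a membrane protein that takes part in Toll-like receptor signalling. A region 194327 bases from Dkk2, a secreted Wnt antagonist, had 41.5 CPM in APC1 and 1.35 in APC2, and was higher in APC1 in 16 of 18 mice. The regions near Fbn1, which encodes the elastic fibre protein fibrillin-1, and near Mmp2, a gelatinase gene, had 47.3 and 37.0 CPM in APC1 against 6.73 and 5.39 CPM in APC2.

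The APC2-leaning end held regions with almost no counts in APC1. The region 72350 bases from Akap11, shown above, had 51.8 CPM in APC2 (77 counts, 40.9 to 64.8) and 0.648 CPM in APC1 (1 count, 0.0164 to 3.61). Its median over the mice was 51.5 CPM in APC2, and it was at 0 in 19 of the mice in APC1, so APC2 was the higher cluster in 17 of 18 mice. Regions near Olfm4 and Syt13 had 68 counts each in APC2 and none in APC1, at least 23.5-fold higher, and both were higher in APC2 in 18 of 18 mice. Has2 makes hyaluronan, a main sugar of the stromal matrix. The region 78318 bases from its start had 46.5 CPM in APC2 and 1.30 in APC1. The regions near Foxq1 and Nuf2 had 54.5 and 42.4 CPM in APC2 and 1.30 CPM each in APC1.

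Of 45 collagen genes, 8 (17.8%) were the nearest gene of at least 1 of the regions, as were 9 of 54 matrix remodelling genes (16.7%) and 8 of 41 growth factor receptors and ligands (19.5%). Over all 18276 protein-coding genes that are nearest to any peak, the share was 2.06%. These lists were drawn up with earlier results of these data known, genes with more peaks nearby have more chances, and the shares were not tested. Of 48 fibroblast transcription factors 3 had a region (6.25%), of 20 proteoglycan and elastic fibre genes 2 (10.0%), and of 37 Hox genes 0.

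Of the 9 collagen regions, 6 were shared, 3 leaned to APC1 and 0 to APC2, where 49.1% of all 452 regions were shared. With so few regions these splits cannot be told apart. The region 7219 bases upstream of Col1a1 had 37.6 CPM in APC1 and 23.6 in APC2, that near Col1a2 35.0 and 24.2 CPM, and that near Col3a1 30.5 and 20.2 CPM. These are the genes of the fibrillar collagens I and III. The APC1-leaning ones were an intronic region at chr8:11273300-11274054 nearest to Col4a2 (59.6 and 27.6 CPM), one in an intron near Col14a1 (42.1 and 17.5 CPM) and one near Col4a4, a basement membrane collagen gene (38.9 and 4.04 CPM).

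Matrix remodelling genes include proteases and collagen cross-linking enzymes. Of 11 regions near matrix remodelling genes, 4 leaned to APC1, 1 to APC2 and 6 were shared. The APC2-leaning one was nearest to Adamts3, a procollagen-processing protease gene (36.4 CPM in APC2 and 5.83 in APC1). Adamts2, another procollagen-processing gene, had an intronic region with 38.2 CPM in APC1 and 15.5 in APC2. A region centred 81 bases into Mmp27 was shared, with 38.2 and 47.1 CPM.

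Of 12 regions near growth factor receptors and ligands, 4 leaned to APC1, 1 to APC2 and 7 were shared. With so few regions this split cannot be told apart from that of all 452 regions. The region 158813 bases from Cxcl12, a chemokine that stromal cells use to retain blood and immune cells, had 50.5 CPM in APC2 and 25.3 in APC1. It was just under the 2-fold limit, with APC2 higher in 16 of 18 mice. Regions near Sfrp2, a secreted Wnt modulator (46.7 and 31.6 CPM), and Gas1, a Hedgehog co-receptor (30.5 and 44.4 CPM), were shared. Near Gdf10, a TGF-beta family gene, the region leaned to APC1 (31.1 and 8.75 CPM).

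Among marker lists of other cell types, only lymph node stroma had regions. Of its 8 genes, 2 had one, against 4 of 13 stromal progenitor markers. They were Pdpn (podoplanin), with 42.1 CPM in APC1 and 24.9 in APC2, and Cxcl13, with 26.6 and 31.0 CPM at 11609 bases upstream. Mural, adipocyte, endothelial, skeletal muscle, Schwann, mesothelial, epithelial, macrophage, B cell and T cell markers had 0. The rule itself kept out regions open in adipocytes, VEC, the VSMC cluster, myeloid cells, B cells or T cells. The lists are also short, and only 2.06% of all protein-coding genes nearest to a peak had a region, so a count of 0 says little. Pdgfra, Ly6a, Pi16 and Dpp4 were nearest to none of the 452 regions.

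A few genes gathered several regions. Bicc1, an RNA-binding protein gene, was nearest to 33 peaks and to 6 of the regions, of which 5 were shared and 1 leaned to APC1. Clec3b, Cops8, Lpar1 and S1pr3 had 4 each, out of 10, 46, 27 and 27 peaks nearest to them. Over all peaks, 0.238% were among the regions, and genes with more peaks have more chances. Lpar1 is a lysophosphatidic acid receptor, and 3 of its 4 regions were shared. Lif, a cytokine of the interleukin-6 family, had 3 out of 30 peaks, of which 2 leaned to APC2. In all, 377 genes were nearest to a region, and 56 of them to 2 or more.

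Position was not used by the rule. Of the 452 regions, 96.2% (95% Wilson interval 94.1 to 97.6) lay over 2000 bases from a gene start, against 89.9% of all peaks and 42.8% of the 11746 peaks with at least 20 CPM in the APC pool. The same rule applied to other pools gave 94.7% for adipocyte peaks, 92.8% for endothelial peaks and 93.0% for myeloid peaks. The regions were also farther out. Their median distance to a gene start was 66686 bases, against 31517 for all peaks, 29925 for adipocyte peaks and 33736 for endothelial peaks. Intergenic regions made up 62.8% of them and introns 35.0%, against 42.5% and 48.4% of all peaks. APC1-leaning regions had a median distance of 52718 bases and APC2-leaning ones of 72350.

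**Figure D3:**
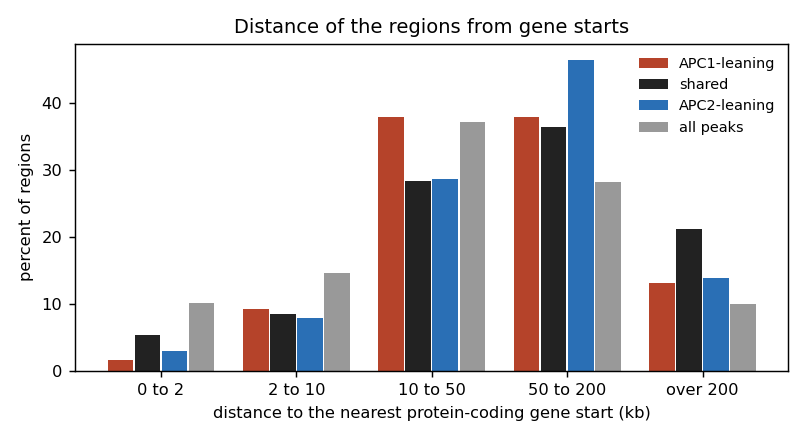
Percent of APC1-leaning (n = 129), shared (n = 222) and APC2-leaning (n = 101) regions and of all 189598 peaks (bars) by distance in kb to the nearest protein-coding gene start. Within 2 kb lie 1.55%, 5.41% and 2.97% of the 3 classes against 10.1% of all peaks, and beyond 50 kb the bars of the 3 classes stand above those of all peaks.

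No region lay on the X chromosome, which holds 4167 peaks (2.20% of all) and of which males carry a single copy. Of the peaks with at least 20 CPM in the APC pool, 180 were on X (1.53%). The same rule gave 19 peaks on X of 2558 for the VSMC cluster, 4 of 1045 for adipocytes, 2 of 932 for endothelial cells and 0 of 643 for myeloid cells. Chromosomes 5, 10 and 15 had the highest share of their peaks among the regions, at 0.313%, 0.366% and 0.310%, against 0.238% overall.

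Sequence was not used by the rule either. Motifs were searched as letters on both strands of the central 300 bases, in 451 of the regions and in 131912 of all peaks that are at least that long. A match describes letters and does not show that a factor binds. The E-box CATCTG of the TWIST and TCF21 type was present in 41.0% of the regions (95% Wilson interval 36.6 to 45.6) and in 22.9% of all peaks. AP-1 letters were present in 22.6% (102 regions) and 11.8%. TEAD letters were present in 25.3% (21.5 to 29.5) and 16.1%, and NFI letters in 34.4% (30.1 to 38.9) and 24.2%. Matches of different motifs can share bases, as TEAD and AP-1 letters do at a common TG. Of 23 motifs searched, 4 were at least 1.5 times as frequent as in all peaks, namely AP-1 (1.91 times), the E-box (1.79), TEAD (1.57) and FOX letters TGTTTAC (1.53, in 6.65% of the regions).

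The E-box was also counted in the regions of other cell types. It was present in 21.2% of endothelial peaks and 19.3% of adipocyte peaks chosen by the same rule, below the interval of the stromal regions. In VSMC cluster peaks it was present in 26.0% and in myeloid peaks in 24.9%. AP-1 was present in 13.4% of endothelial, 8.24% of adipocyte and 17.0% of myeloid peaks. Its share in VSMC cluster peaks is not given here. TEAD, NFI and FOX shares are given only beside all peaks, so a rise particular to the stromal regions is not shown for them. SOX letters ACAATG, by contrast, were in 34.7% of endothelial peaks and 14.6% of the stromal regions (11.7 to 18.2), close to the 13.5% of all peaks. The CEBP letters TTGCNNAA were in 33.8% of adipocyte peaks and 26.6% of the stromal regions (22.7 to 30.9). The median GC content of the windows was 47.0% in the stromal regions and 48.3% in all peaks.

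Some letters were more frequent in one class of regions than in the other. AP-1 was present in 27.9% of APC1-leaning regions (20.9 to 36.2) and 9.90% of APC2-leaning regions (5.47 to 17.3). With the shared regions included, it was in 22.6% of the stromal regions, against 11.8% of all peaks. The letters ACANNNTGT of the glucocorticoid receptor (GR) type were present in 20.2% (14.1 to 27.9) and 4.95% (2.13 to 11.1), around the 10.7% of all peaks. RUNX letters TGTGGT were in 25.6% (18.8 to 33.7) and 10.9% (6.19 to 18.5), against 23.8% of all peaks. The APC1-leaning interval held the share of all peaks, and the APC2-leaning one lay below it. For these 3 motifs the intervals of the classes do not overlap in 300-base windows, for RUNX only just. In 500-base windows the RUNX shares were 39.6% and 29.8% (33.8% of all peaks), those of AP-1 41.5% and 13.1% and those of GR 30.2% and 8.33%.

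The order was the other way for 2 of the motifs. NFI letters were in 29.5% of APC1-leaning (22.3 to 37.8) and 42.6% of APC2-leaning regions (33.4 to 52.3), and TEAD letters in 17.1% (11.5 to 24.5) and 30.7% (22.5 to 40.3), with intervals that overlap. The E-box was frequent in both, at 48.1% (39.6 to 56.6) and 32.7% (24.3 to 42.3). ETS letters CCGGAA were in 0 of 129 APC1-leaning regions, which allows a share of up to 2.89%, and in 4.95% of APC2-leaning regions. Over all peaks the ETS share was 6.55%. The classes were formed on accessibility in the same nuclei, the regions are not replicates, and no test was made.

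**Figure D4:**
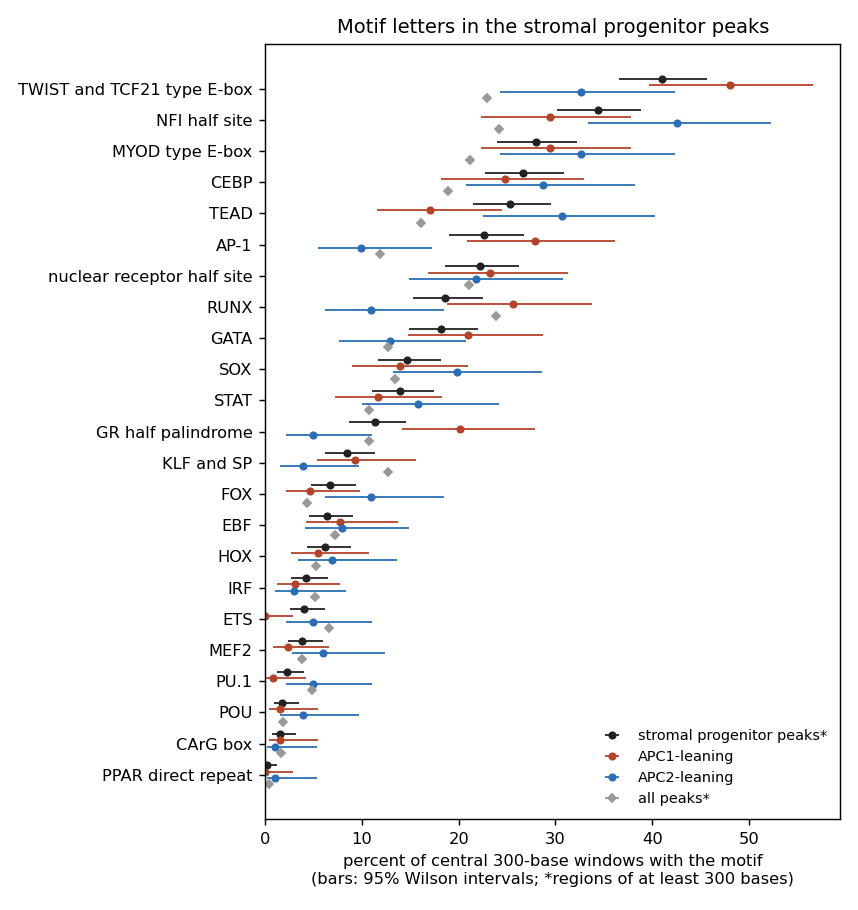
Percent of central 300-base windows with each of 23 motifs in the stromal progenitor peaks, their APC1-leaning and APC2-leaning classes and all peaks, with 95% Wilson intervals as bars. The TWIST and TCF21 type E-box leads with 41.0% against 22.9% of all peaks. AP-1 letters are in 27.9% of APC1-leaning and 9.90% of APC2-leaning regions, against 22.6% of the stromal progenitor peaks and 11.8% of all peaks.

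Cold and CL were compared with day 0 to see whether the regions open or close during beiging. In the sums of APC nuclei per mouse, none of the 452 regions was called as different between cold and day 0, CL and day 0, or CL and cold (edgeR quasi-likelihood test over 20016 peaks, Benjamini-Hochberg adjusted, smallest adjusted p over the regions 1.00, 0.999 and 0.786). No other peak was called either (0% of 20016 in each comparison), and DESeq2 also called 0 in each. All 452 regions passed the filter of 40 counts. At an unadjusted p under 0.05, edgeR gave 31 of the 452 regions (6.86%) for cold against day 0, where the share over all peaks was 3.93%. It gave 17 for CL against day 0 (3.76%, against 3.51% of all peaks) and 36 for CL against cold (7.96%, against 4.59% of all peaks). With DESeq2 these counts were 14, 7 and 10 (3.10%, 1.55% and 2.21%), where the shares over all peaks were 1.59%, 1.54% and 1.96%. The differences between these shares were not tested.

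The depth limits what these comparisons can show. Standard errors were worked back from the log2 fold change and its edgeR F statistic, so they are approximate and can be too small for the most accessible regions. The median standard error of a region's log2 fold change was 0.56 for cold and 0.57 for CL against day 0, and 0.39 for CL against cold. The median log2 fold change over the regions was 0.05 for cold, 0.04 for CL and 0.05 for CL against cold, and over all peaks it was 0.0042, -0.03 and -0.03. For the Dclk1 promoter the unadjusted p (edgeR) was 0.43 in cold and 0.081 in CL, and the adjusted p 1.00 and 0.999. Its log2 fold change was 0.26 ± 0.29 (SE) in cold and 0.56 ± 0.29 in CL. The Tgfbr2 region had 0.34 ± 0.29 and 0.13 ± 0.30, and the Cxcl12 region 0.29 ± 0.44 and 0.23 ± 0.45. Changes of the size of these errors were not detectable at this depth, and larger ones could go uncalled too. Over the regions the estimated log2 fold change ran from -1.92 to 2.14 in cold and from -2.07 to 2.30 in CL, with none called.

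With the APC1 share of each mouse as a covariate, CL against cold gave 16 of the 452 regions in place of 36 at an unadjusted p under 0.05 (3.54%, against 3.96% of all peaks). Cold against day 0 gave 25 in place of 31 (5.53%, against 3.99% of all peaks). CL against day 0 gave 21 in place of 17 (4.65%, against 4.05% of all peaks). The part of the cluster mix in these counts was not tested further. The Cd34 region, which is nearly confined to APC1, had a log2 difference of 0.98 ± 0.38 (SE, adjusted p 1.00 by edgeR over all peaks) between CL and cold, and the Akap11 region, nearly confined to APC2, -0.67 ± 0.41 (adjusted p 1.00 by edgeR). The 2 mice with 2 or fewer APC2 nuclei were both CL mice. Without them, CL against cold gave 22 regions at an unadjusted p under 0.05 (4.87%, against 4.83% of all peaks), 2 higher and 20 lower in CL, where 21 were higher and 15 lower with all mice.

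The regions, summed, took 1.24% ± 0.102 (SD, n = 21 mice) of APC counts, with 1.02% at lowest, 1.26% at the median and 1.42% at highest. In APC1 alone the share was 1.11% to 1.33% on day 0, 0.886% to 1.53% in cold and 1.26% to 1.61% in CL. In APC2 alone it was 1.09% to 1.45%, 0.907% to 1.42% and 0.941% to 1.30%. The groups overlapped in both clusters. In beige adipocytes the share was 0.0502% to 0.0807% on day 0, 0.0634% to 0.0915% in cold and 0.0742% to 0.151% in CL, with overlapping ranges. The highest of these values came from mouse 3 of the 1-day CL group, one of the 3 mice with few lymphocytes.

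**Figure D5:**
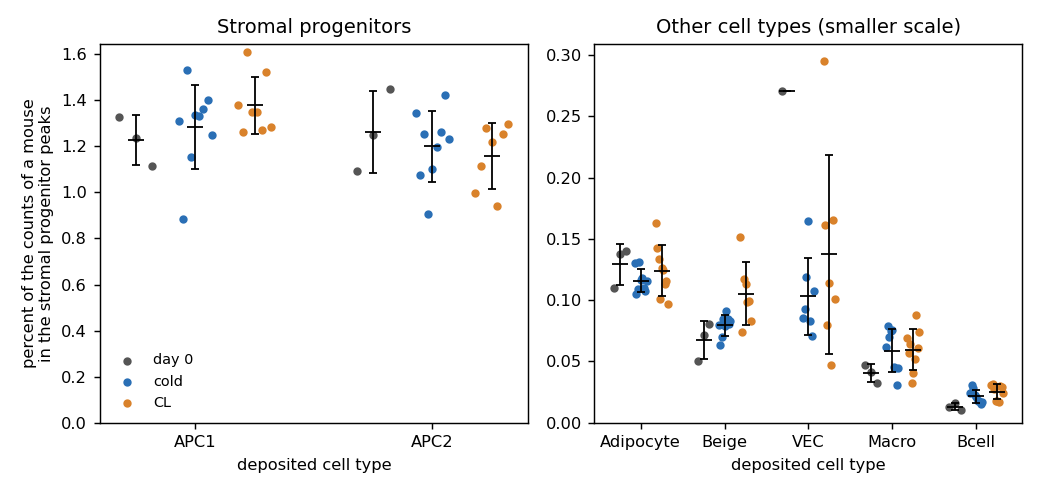
Percent of the counts of each mouse that fall in the 452 regions, for APC1 and APC2 (left) and other cell types (right, smaller scale). Points are mice with at least 10 nuclei of the type, coloured by treatment over all days, and bars are the mean ± SD, with no SD for VEC on day 0, where 1 mouse qualified. The APC1 and APC2 points lie between 0.886% and 1.61% and the treatments overlap.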

How the data were processed

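Single-nucleus ATAC-seq libraries from iWAT nuclei of 21 mice were sequenced as 4 lanes. Per their methods and the processing notes, the authors aligned reads with Bowtie2 to mm10, removed PCR duplicates, low-quality nuclei and doublets (Scrublet), called peaks with MACS2 per cluster and made the matrix with Signac. The deposited counts are binary: every nucleus has 1 or nothing at a peak, so 1 read and several reads in a nucleus cannot be told apart and widely open regions are flattened. The peaks and cell types come from the same nuclei. No read was aligned again.

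Counts were summed by deposited cell type and mouse, leaving out sums of fewer than 10 nuclei, and coordinates were read as 1-based. Genes are protein-coding genes of GENCODE M21 on GRCm38, assigned by the nearest start to the peak centre. Sequences come from RefSeq GRCm38.p6. Treatment comparisons used edgeR 4.0.16 in R 4.3.3 (quasi-likelihood, TMM factors, peaks of at least 40 counts, all 7 groups in 1 fit, days of a treatment averaged, Benjamini-Hochberg, threshold 0.05, two-sided), with DESeq2 1.42.0 as an alternative, and the edgeR script was tested on simulated data. Correlations used 100000 permutations (two-sided, Python 3.11.15, scipy 1.17.1). Poisson and Wilson intervals have 95% confidence and cover counting error only, and 0 counts were bounded at 3 counts per pool. The same-group samples are separate mice.

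Regions named are the 10 most accessible, the 6 with the highest ratio each way between APC1 and APC2 (0.5 counts added), the most accessible one of each listed gene, any past the threshold of a treatment comparison (up to 5 each, of which there were none) and the 10 genes nearest to most regions. Regions at the limits of the rule (near Pard3b, Galnt15 and Id4) were added to show those limits. The members, gene lists and motifs were chosen with earlier results of these data known.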

Additional observations from a re-analysis of the deposited data

How the results depend on the processing

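The number of regions follows the limits of the rule. With a minimum of 10 CPM there were 2013 regions, of which 763 leaned to APC1 and 641 to APC2. With a minimum of 40 CPM there were 23, of which 4 and 3 leaned and 87.0% lay over 2000 bases from a gene start. At 3 times each other pool there were 727 regions (196 and 166 leaning), and at 6 times 236 (71 and 57 leaning, 97.9% over 2000 bases from a gene start). With each mouse weighted equally there were 497 regions, sharing 339 with the 452, and 173 leaned to APC2. Leaving out each mouse gave 427 to 475 regions, 112 to 152 leaning to APC1, 87 to 138 leaning to APC2, 95.1% to 96.7% over 2000 bases from a gene start and 1.23% to 1.25% of APC counts in the regions. The cause of these shifts was not tested.

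The other alternatives (shares of nuclei in place of CPM, nuclei of at least 2000 counts, the median ratio within mice, APC1 or APC2 alone) kept the numbers of regions within 1.5 times those given and the share of APC counts within the spread over mice. Longer windows hold more matches: in 500 bases the E-box was in 52.5% of the regions and 32.7% of all peaks, AP-1 in 32.6% and 16.2%, and TEAD in 38.8% and 24.4%, and CEBP took the place of FOX among the 4 motifs at least 1.5 times as frequent as in all peaks. Over 2000 bases from a gene start, 3 motifs were at least 1.5 times as frequent as in all such peaks, FOX having 1.45 times. The next alternatives were chosen after seeing the data. Without nuclei of repeated barcodes there were 449 regions, and without the 2 mice of 2 or fewer APC2 nuclei 431, with 100 leaning to APC1 and 128 to APC2.

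The treatment comparisons called 0 peaks under each alternative run, which were no TMM factors, other count minimums, each cluster alone, other mice, other groups in the fit, DESeq2 and the replicate block. CL against cold came near the threshold without mouse 3 of the 3-day CL group. There the smallest adjusted p (edgeR) was 0.059 over all peaks and 0.119 over the regions. In that fit 54 regions had an unadjusted p under 0.05 (11.9%, against 6.38% of all peaks). The study's reporting summary names 3 independent batches without saying which mice each held, so batch could not be entered in a fit unless mouse numbers mark it. Same-numbered mice had a mean correlation of -0.003 over 63 pairs (-0.096 to 0.073). Pairs of other numbers had 0.002 over 126 pairs (-0.078 to 0.138). With so few counts per mouse all pairs lay near 0, so a shared batch effect could be missed. Whether mouse numbers mark the batches is therefore not known, and the block fit is only an alternative. With 61 to 232 counts per region over 21 mice, changes much below 2-fold lie within the errors, and changes of 2-fold or more can also go uncalled.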
